A study of Rattus norvegicus with 4 samples.

Results

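Cadherins, protocadherins, the Celsr receptors and the catenins were followed in cultures of rat astrocytes and mouse neurons. Members were the probes whose gene name begins with Cdh and a digit, with Pcdh, with Celsr or with Ctnn, or whose description contains the word protocadherin, and Cdh5 was left out. This gave 74 of the 35658 gene names on the array, read by 102 of its 41012 probes. Of these, 69 probes for 52 genes were bright enough to be tested, among 24881 probes in all, and the other 33 were too dim in every RNA.

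Cadherins are calcium-dependent adhesion proteins of the cell surface. The classical cadherins bind the same or similar cadherins on the neighboring cell and are tied to actin through beta- and alpha-catenin, while p120-catenin keeps them at the membrane. Protocadherins form the largest branch of the family: the clustered ones combine alternative first exons with shared last exons and give single neurons an adhesive identity, and the non-clustered delta protocadherins mark particular brain regions and layers and act in axon growth and at synapses. Astrocytes are known for N-cadherin and for gamma protocadherins, which also serve contacts between astrocytes and neurons.

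Astrocytes came from the cortex of Wistar rat pups at P1, and neurons from hippocampi of mouse embryos at E18 that were plated onto the astrocyte layer. The study compared 3 RNA groups. CC was the whole co-culture, CC-CJ was co-culture after cold jet, in which ice-cold buffer is streamed over the cells to take off neurons, and AA-CJ was astrocytes cultured alone under similar conditions and given the same cold jet. CC received no cold jet, so that CC and AA-CJ differ both in neurons and in this treatment. Each RNA came from several wells, and replicates came from different pools of animals. The probes were designed for rat, and how well they read the mouse mRNAs was not tested. A co-culture also holds any other cells of the hippocampal preparation, and fewer cells of a type cannot be told apart from less RNA per cell.

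Each of the 4 arrays, all on 1 slide, compared CC-CJ labeled with Cy3 against another RNA labeled with Cy5, which was AA-CJ on 2 arrays and CC on the other two. M is log2 of the Cy3 over the Cy5 signal and is above 0 where CC-CJ was the higher RNA. Dyes were not swapped, and within an array the dye and the condition cannot be told apart. CC and AA-CJ were both in Cy5, and their difference is free of a dye effect shared by all arrays. Levels are log2 intensities of a channel after normalization, and they are compared only within a probe. A member is said to have risen or fallen where limma gave an adjusted p under 0.05, with Benjamini-Hochberg adjustment over all tested probes. Precision is limited by having 2 arrays per comparison. Whether CC-CJ RNA on the CC arrays was separate from that on the AA-CJ arrays is not stated. The 4 CC-CJ values may therefore not be 4 separate RNAs, while the model treats the arrays as independent. The p-values rest on a probe's spread over the 4 arrays, drawn by limma toward a value estimated from all tested probes.

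Marker genes of cell types were read on the same arrays as the members. Of 12 neuronal marker probes, 4 (Gap43, Dcx, Mapt and Elavl4) were higher after cold jet in co-culture than in AA-CJ, and 8 fell below CC. Their summed linear intensity was 13572 to 13961 in AA-CJ, 13340 to 14038 in CC-CJ and 24882 to 25796 in CC. In AA-CJ, the probes of Dcx and Elavl4 and 1 of those of Syt1 were not well above background on either array. In CC-CJ, those of Dcx and Elavl4 were so on all 4 arrays, and mean M of Gap43 against AA-CJ was 2.03. A linear sum follows its brightest probes, and the near-equal sums do not show that neuronal RNA was gone. Of 9 microglial probes, 5 rose in CC-CJ against AA-CJ and 6 fell against CC, with sums of 1014 to 1149 in AA-CJ, 1489 to 1925 in CC-CJ and 3216 to 3318 in CC. In AA-CJ, the probes of C1qa, Trem2 and Aif1 and 1 of those of Csf1r were not well above background on either array. Astrocyte markers were present in every RNA, with sums of 50071 to 62943 in AA-CJ, 59947 to 62897 in CC-CJ and 57882 to 60633 in CC, and 1 of 15 probes, for Aqp4, rose in CC-CJ against AA-CJ. Of 8 oligodendrocyte probes, 2 fell in CC-CJ against CC, with sums of 2722 to 3256, 2635 to 2843 and 3223 to 3899 in AA-CJ, CC-CJ and CC. Of 8 fibroblast and meningeal probes, 2 fell in CC-CJ against CC, with sums of 132523 to 146503, 122901 to 137911 and 157256 to 158627. Of 2 endothelial probes, 1 rose in CC-CJ against AA-CJ, with sums of 175 to 207, 634 to 725 and 738 to 746. The part of these cells in the results on cadherins was not tested.

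Against AA-CJ, 3 of the 69 tested members rose in CC-CJ and none fell. These were the delta protocadherin Pcdh10, the classical cadherin Cdh6, and 1 probe of Ctnnal1, which encodes an actin-associated relative of alpha-catenin. The rises are 4.35% of the members, where 2.07% of all tested probes were called higher and 1.14% lower. At an unadjusted p of 0.05, 7 members were higher and 1 lower, where 11% of all tested probes were higher and 11.4% lower. The share of higher members is near that of all tested probes, and the share of lower members is below it. The median M of the members was 0.02, and that of all tested probes was -0.01.

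In CC-CJ compared with CC, none of the members rose and 7 fell. These were Cdh13, Pcdh7, Pcdh8, Pcdh9, Pcdh17 and both probes of Pcdhac2. They make up 10.1% of the members, where 2.25% of all tested probes were called lower and 0.0764% higher. At an unadjusted p of 0.05, 1 member was higher and 18 were lower, where 4.92% of all tested probes were higher and 11.9% lower. The median M was -0.11, and that of all tested probes was -0.03.

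In CC compared with AA-CJ, 8 members rose and none fell. They were Cdh6, Cdh13, Pcdh8, Pcdh9, Pcdh10, Pcdh17 and both probes of Pcdhac2. They are 11.6% of the members, where 2.56% of all tested probes were called higher and 0.0563% lower. At an unadjusted p of 0.05, 15 members were higher and none was lower, where 11.5% of all tested probes were higher and 5.94% lower. This comparison is the difference between the other two, and all 3 share arrays, so that they are not independent of each other. Calls depended on how background was handled. With plain background subtraction, Pcdh10 and Ctnnal1 still rose against AA-CJ, and Cdh13 and the Pcdhac2 probe starting at 29927910 still fell against CC, while Cdh6 (adjusted p = 0.10), Pcdh7 (0.13), Pcdh9 (0.09), Pcdh8 (0.14), Pcdh17 (0.12) and the other Pcdhac2 probe (0.062) no longer passed in these comparisons. With the log ratio of the scanner software, only Pcdh10 of the 3 rises and the Pcdhac2 probe starting at 29927910 of the 7 falls passed.

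All 69 tested members were well above background in CC on both arrays, while 54 were so in AA-CJ on both arrays and 43 in CC-CJ on all 4. Thus 11 members were tested that were at background in AA-CJ on both arrays, and 10 that were at background in CC-CJ on every array. Such a member could only differ in the direction of CC. When the test was run only on probes bright in both channels on every array, which left 43 members, 3 rose in CC-CJ compared with AA-CJ, 6 fell in CC-CJ compared with CC, and 6 rose in CC compared with AA-CJ. Under this filter 2.23%, 1.54% and 1.97% of all probes were called in these directions. Pcdh8 was then not among the tested members, and Cdh6 no longer passed in CC compared with AA-CJ (adjusted p = 0.062). Of all 102 members, 67.6% were well above background in CC on both arrays, compared with 59.9% of all probes. For AA-CJ the shares were 52.9% and 54.4%, and for CC-CJ on all 4 arrays 42.2% and 47.6%.

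**Figure D1:**
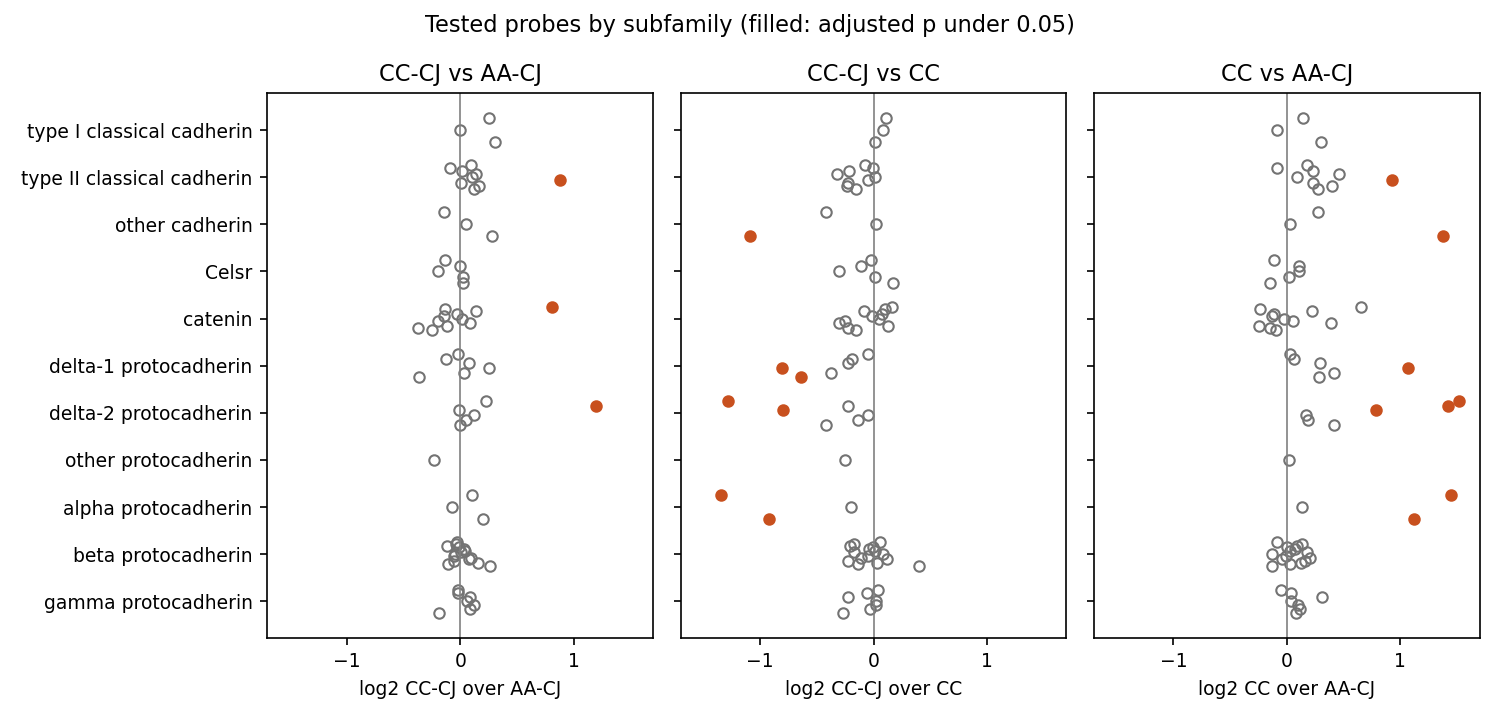
Each point is a tested probe, placed by its mean log2 ratio (horizontal axis) in its subfamily (rows), with a panel for each comparison. Filled points passed an adjusted p of 0.05 in limma. The beta and gamma protocadherins lie near 0 in all panels, and the probes that passed belong to the delta and alpha protocadherins, the type II and other cadherins and the catenins. Several beta and gamma probes were at background in AA-CJ or CC-CJ, and M of dim probes is drawn toward 0.

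Pcdh10, also called OL-protocadherin, is a delta-2 protocadherin that acts on the actin cytoskeleton through the WAVE complex. Its probe lies at chr2:132903652-132903711 of rn4. Its level was 6.57 and 6.62 in AA-CJ, 7.82 and 7.76 in CC-CJ on the same arrays, 8.08 and 8.03 in CC-CJ on the CC arrays, and 8.24 and 8.32 in CC. The groups did not overlap, and AA-CJ was lowest and CC highest. Mean M against AA-CJ was 1.19 (standard error 0.088, n = 2, adjusted p = 0.00213), a 2.29-fold rise, with M values of 1.25 and 1.14. Against CC it was -0.23 (standard error 0.088, adjusted p = 0.27), with both arrays below 0. CC exceeded AA-CJ by 1.42 (standard error 0.125, adjusted p = 0.00164).

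Cdh6 encodes K-cadherin, a type II classical cadherin of kidney and developing brain. Its probe lies at chr2:62548312-62548371 of rn4. The level was 8.14 and 8.66 in AA-CJ, 9.26 and 9.29 in CC-CJ on those arrays, 9.35 and 9.31 on the CC arrays, and 9.45 and 9.30 in CC. AA-CJ was below all other values, and CC-CJ and CC overlapped. Mean M against AA-CJ was 0.88 (standard error 0.125, adjusted p = 0.0219), a 1.84-fold rise, and the arrays gave 1.12 and 0.63. Without replicate 1 of that comparison M was 0.63 and the call was lost (adjusted p = 0.082). Against CC the mean M was -0.05 (adjusted p = 0.87). CC exceeded AA-CJ by 0.93 (standard error 0.177, adjusted p = 0.0485), a call that was lost without the first array against AA-CJ (0.68, adjusted p = 0.081) and without either array of CC-CJ versus CC (0.87 and 0.98, adjusted p = 0.09 and 0.083). When arrays were centered on their median in place of loess, M against AA-CJ was -0.03 and the direction flipped. The median of all tested probes was then -0.50, and Cdh6 lay 0.47 above that median.

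Ctnnal1 had 2 probes, both on chromosome 5 of rn4, and they did not move alike. For the probe at chr5:74716245-74716304, the level was 6.84 and 6.76 in AA-CJ, 7.58 and 7.65 in CC-CJ on those arrays, 7.73 and 7.76 on the CC arrays, and 7.52 and 7.65 in CC. AA-CJ stood below all the other values. Mean M against AA-CJ was 0.81 (standard error 0.089, adjusted p = 0.00996), a 1.75-fold rise, and against CC it was 0.16 (adjusted p = 0.41). CC exceeded AA-CJ by 0.65 (standard error 0.126), just short of the threshold (adjusted p = 0.0501). The probe at chr5:74716897-74716956 gave M values of -0.11 and -0.11 against AA-CJ (adjusted p = 0.50) and 0.03 and 0.22 against CC (adjusted p = 0.52). The mean over both probes was 0.35 against AA-CJ and did not pass (standard error 0.08, adjusted p = 0.0682).

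**Figure D2:**
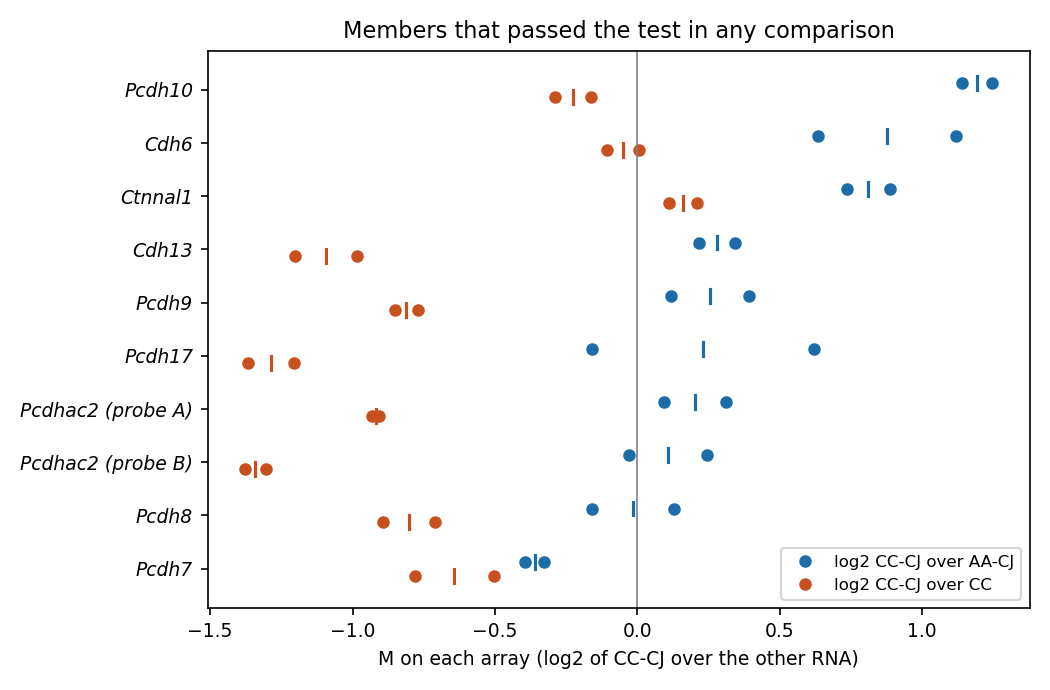
Points are the M value of each array (log2 of CC-CJ over the other RNA, 2 arrays per comparison) and bars are the mean, for the 10 probes that passed in any comparison. Pcdh10, Cdh6 and Ctnnal1 lie to the right of 0 against AA-CJ and between -0.29 and 0.21 against CC, and the other 7 lie to the left of 0 against CC. Probe A of Pcdhac2 starts at 29927148 and probe B at 29927910. Under median centering the M of Cdh6 against AA-CJ turned to -0.03.

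The sequence upstream of the transcription start is shown for the 3 genes that rose against AA-CJ, since members that move together can be compared there. RefSeq promoter windows in the build GRCr8 were at hand for 52 of the 74 gene names and for 7 of the 9 genes that passed in any comparison, without Cdh13 and Pcdhac2. The 250 bases before the start are printed on the strand of the gene, with capitals marking the GC box GGGCGG on either strand, a motif read by Sp factors. Pcdh10 lies at chr2:130553188-130553437 (plus strand), Cdh6 at chr2:63952288-63952537 (minus strand) and Ctnnal1 at chr5:76364638-76364887 (minus strand).
Pcdh10: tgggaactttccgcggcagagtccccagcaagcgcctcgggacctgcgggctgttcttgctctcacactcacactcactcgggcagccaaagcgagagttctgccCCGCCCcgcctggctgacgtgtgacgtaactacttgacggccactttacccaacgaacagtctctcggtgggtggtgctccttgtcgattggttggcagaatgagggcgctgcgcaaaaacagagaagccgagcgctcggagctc
Cdh6: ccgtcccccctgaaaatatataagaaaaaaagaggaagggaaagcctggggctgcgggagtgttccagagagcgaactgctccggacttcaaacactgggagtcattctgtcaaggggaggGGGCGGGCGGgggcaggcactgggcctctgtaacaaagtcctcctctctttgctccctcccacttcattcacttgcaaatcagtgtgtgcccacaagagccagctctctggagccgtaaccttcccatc
Ctnnal1: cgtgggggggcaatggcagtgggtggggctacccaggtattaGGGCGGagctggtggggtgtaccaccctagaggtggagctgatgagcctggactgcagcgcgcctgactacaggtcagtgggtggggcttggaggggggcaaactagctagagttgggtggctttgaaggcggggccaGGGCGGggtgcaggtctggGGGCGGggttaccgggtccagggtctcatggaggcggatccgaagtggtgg

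The GC box was found in all 3 of these windows, with 1 match for Pcdh10, 2 overlapping matches for Cdh6 and 3 for Ctnnal1, and in none of the windows of Pcdh7, Pcdh8, Pcdh9 and Pcdh17. The RefSeq table has 33469 windows, of which 30.5% held it, and among the 52 member windows 23.1%. GC content was 61.2%, 56% and 66.4% for Pcdh10, Cdh6 and Ctnnal1, where the median of all windows was 51.2% and of member windows 47.6%. The CCAAT box CCAAT was found in Pcdh10, Pcdh7, Pcdh8 and Pcdh17 (34% of all windows), and the TCF core CTTTGA, through which beta-catenin acts, in Ctnnal1 and Pcdh7 (13.9% of all windows). A match describes letters, and binding was not measured.

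The delta protocadherins held most of the members that fell after cold jet, with 2 of 6 tested delta-1 probes and 2 of 6 tested delta-2 probes. Pcdh17, a delta-2 protocadherin that collects at synapses and along axons, was read by 2 probes on chromosome 15. For the probe at chr15:66481885-66481944, the level was 9.53 and 9.5 in CC, 8.33 and 8.13 in CC-CJ on the same arrays, 8.28 and 8.12 in CC-CJ on the AA-CJ arrays, and 7.65 and 8.28 in AA-CJ. CC stood above all other values, and CC-CJ and AA-CJ overlapped. Mean M against CC was -1.29 (standard error 0.172, adjusted p = 0.0121), with M values of -1.21 and -1.37, so that CC-CJ was 2.44-fold lower. CC exceeded AA-CJ by 1.52 (standard error 0.243, adjusted p = 0.0262). CC-CJ and AA-CJ gave 0.62 on one array and -0.16 on the other (mean 0.23, adjusted p = 0.48). Without replicate 2 of CC-CJ versus CC the fall of 1.21 no longer passed (adjusted p = 0.061). The other probe, at chr15:66394334-66394393, had M values of -0.34 and 0.07 against CC (adjusted p = 0.59) and was not well above background in AA-CJ.

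Pcdh9, a delta-1 protocadherin of cortex and hippocampus, had 3 tested probes that span 907369 bases. The probe at chr15:76734787-76734846 had a level of 8.69 and 8.85 in CC, 7.92 and 8.0 in CC-CJ on the same arrays, 7.86 and 8.05 on the AA-CJ arrays, and 7.47 and 7.93 in AA-CJ. CC was above all other values and the others overlapped. Mean M against CC was -0.81 (standard error 0.098, adjusted p = 0.00783), a 1.75-fold fall. From AA-CJ to CC the level rose by 1.07 (standard error 0.139, adjusted p = 0.011). Without replicate 2 of CC-CJ versus CC, M was -0.77 and the call was lost (adjusted p = 0.073). The other 2 tested probes, starting at 75827478 and 75828581, gave mean M values of -0.22 and -0.19 against CC (adjusted p = 0.50 and 0.34), and the mean over all 3 did not pass (-0.41, adjusted p = 0.13).

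Pcdh8, also called arcadlin, is a delta-2 protocadherin that neuronal activity induces and that draws N-cadherin away from synapses. Its probe starts at chr15:61057353 and ends at 61057804 of rn4. The level was 7.15 and 7.35 in CC, 6.44 and 6.45 in CC-CJ on those arrays, 6.12 and 6.25 on the AA-CJ arrays, and 6.28 and 6.12 in AA-CJ. CC was the only RNA in which it was well above background, and it was so on both arrays. CC exceeded CC-CJ 1.74-fold (adjusted p = 0.0109). Pcdh8 entered the test through CC alone and could only differ in that direction, so that its calls are no separate support. CC and AA-CJ lay on different arrays, and their fitted difference was 0.79 (standard error 0.15, adjusted p = 0.0462), while AA-CJ has only an upper limit. The CC-CJ signal was likewise at background, and the fold against it is open to dye bias. M values against CC were -0.71 and -0.89. Without replicate 2 of CC-CJ versus CC the fall no longer passed (-0.71, adjusted p = 0.117), and the rise of CC over AA-CJ was lost without any 1 of replicate 1 or 2 of CC-CJ versus CC or the second array against AA-CJ (0.88, 0.69 and 0.64, adjusted p = 0.054, 0.17 and 0.093).

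Pcdh7, a delta-1 protocadherin also called BH-protocadherin, differed from the others in its level in astrocytes alone. With a probe at chr14:57321171-57321230, the level was 8.48 and 8.83 in CC, 7.98 and 8.05 in CC-CJ on the same arrays, 7.93 and 8.06 on the AA-CJ arrays, and 8.33 and 8.39 in AA-CJ. The 3 groups did not overlap, and CC-CJ was the lowest of them. Mean M was -0.64 against CC (standard error 0.099, adjusted p = 0.0214), a 1.56-fold fall. Against AA-CJ it was -0.36, with -0.39 and -0.33 on the arrays, and did not pass (standard error 0.099, adjusted p = 0.0942). CC and AA-CJ differed by 0.28 (adjusted p = 0.35). Without replicate 2 of CC-CJ versus CC the fall was 0.50 and no longer passed (adjusted p = 0.29), and with the replicate number as a block it did not pass either (adjusted p = 0.056).

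The remaining delta protocadherins did not pass in any comparison. Pcdh19, which forms complexes with N-cadherin, had a level of 9.64 and 9.79 in CC and 9.35 and 9.25 in CC-CJ on the same arrays. M was -0.30 and -0.54 (mean -0.42, adjusted p = 0.11), and the difference between CC and AA-CJ was 0.42 (adjusted p = 0.21). Pcdh11x, at background outside CC, had a mean M of -0.38 against CC (adjusted p = 0.19), a 1.3-fold difference. Pcdh1 and Pcdh18 had mean M values of -0.05 each against CC and -0.02 and 0.12 against AA-CJ.

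Cdh13 encodes T-cadherin, which lacks the part that binds catenins and is held in the membrane by a lipid anchor. Its probe at chr19:49566285-49566344 had a level of 8.86 and 9.05 in CC, 7.88 and 7.85 in CC-CJ on the same arrays, 7.82 and 7.90 on the AA-CJ arrays, and 7.48 and 7.68 in AA-CJ. The groups did not overlap, and CC was highest and AA-CJ lowest. Mean M against CC was -1.09 (standard error 0.095, adjusted p = 0.00162), a 2.13-fold fall with M values of -0.98 and -1.20. The difference of CC over AA-CJ was 1.37 (standard error 0.135, adjusted p = 0.00283). Against AA-CJ, M was 0.34 and 0.22 and did not pass (adjusted p = 0.15). Under median centering it was -0.32 where the median of all tested probes was -0.50. The other probe, at chr19:49574917-49574976, gave -0.31 and -0.52 against CC (adjusted p = 0.11), and -0.03 and -0.26 against AA-CJ (adjusted p = 0.44). The mean over both probes passed against CC (-0.75, adjusted p = 0.0103).

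**Figure D3:**
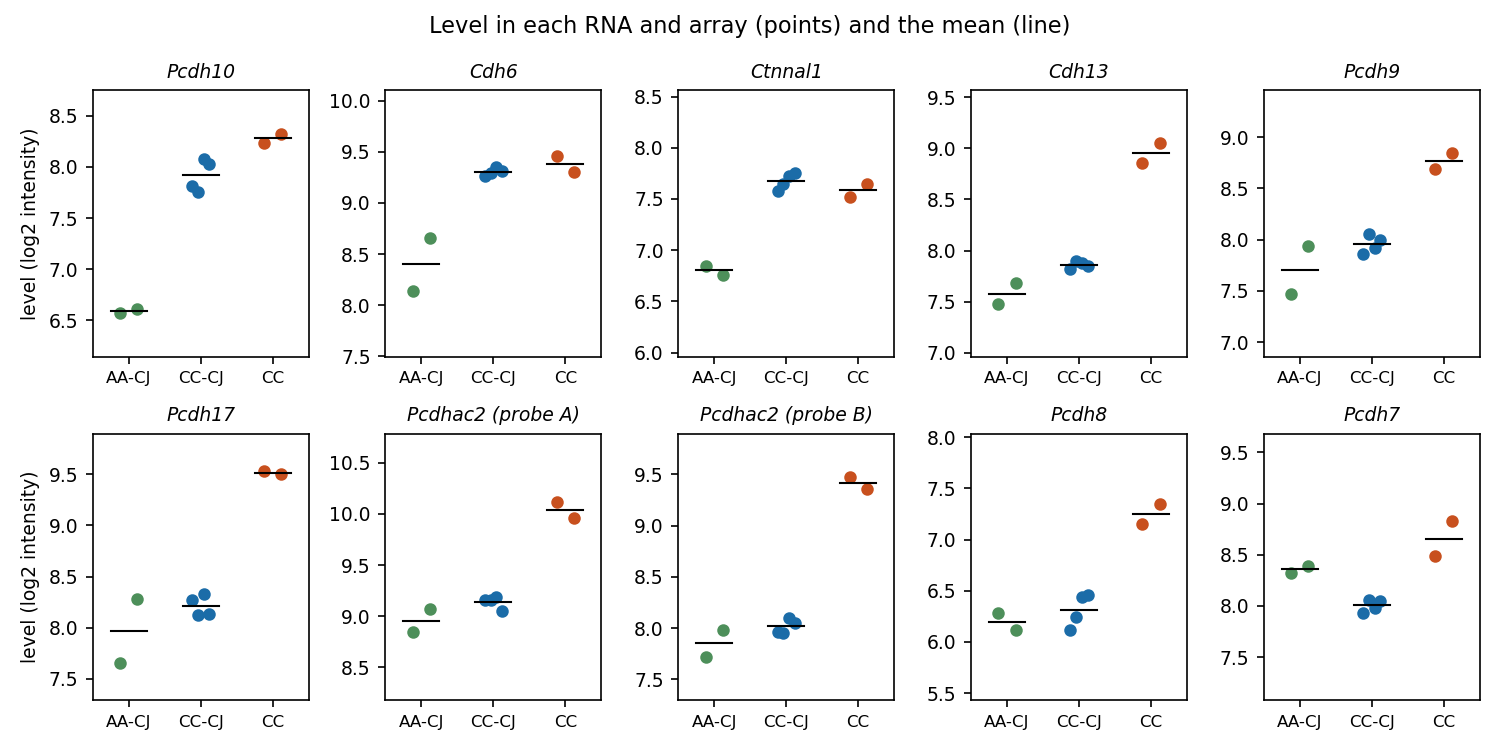
Points are the level of each array and RNA (log2 intensity, 2 values for AA-CJ, 4 for CC-CJ, 2 for CC) and lines are the means, for the 10 probes that passed in any comparison. The 4 CC-CJ values may not be 4 separate RNAs. The vertical axes span the same range but start at different levels, and probes A and B of Pcdhac2 start at 29927148 and 29927910. Pcdh10, Cdh6 and Ctnnal1 have AA-CJ apart from the rest, and in the other panels CC stands above the rest.

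All but 2 of the clustered protocadherin probes lie on chromosome 18 of rn4, where alpha members were read from 29672366 to 29927969, beta members from 30012844 to 30329004 and gamma members from 30577297 to 30716716. The tested probe of Pcdhb16l is placed on an unlocalized part of chromosome 3, and the untested probe of Pcdha13-ps1 on chromosome X. Pcdhac2, a C-type isoform whose first exon is the last of the alpha cluster, was the only clustered gene that passed. Its probe at chr18:29927910-29927969 had a level of 9.47 and 9.36 in CC, 8.10 and 8.05 in CC-CJ on the same arrays, 7.96 and 7.95 on the AA-CJ arrays, and 7.72 and 7.98 in AA-CJ. CC was above all the others, and CC-CJ and AA-CJ overlapped. Mean M against CC was -1.34 (standard error 0.098, adjusted p = 0.000683), a 2.53-fold fall with M values of -1.38 and -1.30. CC exceeded AA-CJ by 1.45 (standard error 0.139, adjusted p = 0.00259), and M against AA-CJ was 0.25 and -0.03 (adjusted p = 0.57).

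The second probe of Pcdhac2 begins at 29927148, so that both lie within 822 bases, and it moved in the same way. Its level was 10.1 and 9.96 in CC, 9.18 and 9.05 in CC-CJ on the same arrays, 9.16 and 9.16 on the AA-CJ arrays, and 8.85 and 9.07 in AA-CJ. Mean M against CC was -0.92 (standard error 0.092, adjusted p = 0.00331). Its rise in CC against AA-CJ was 1.12 (standard error 0.13, adjusted p = 0.0064). The third tested alpha probe, for Pcdha4, starts at 29685323 and gave -0.32 and -0.08 against CC (adjusted p = 0.36), and in CC-CJ it stayed at background. RefSeq lists Pcdhac2 among the synonyms of Pcdha4. All alpha transcripts share their last exons, and whether the Pcdhac2 probes lie in shared sequence was not tested.

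Of the 15 tested beta protocadherin probes and the 7 tested gamma probes, none passed in any comparison. Against AA-CJ, mean M ran from -0.12 to 0.27 for the beta probes and from -0.18 to 0.12 for the gamma probes. Against CC, it ran from -0.22 to 0.40 and from -0.27 to 0.04. At an unadjusted p of 0.05, 1 beta probe was higher in both of these comparisons and 1 gamma probe was lower in CC-CJ than in CC. Genes of these clusters are near-identical in sequence, so that 1 probe may read several of them.

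The largest beta value belonged to Pcdhb12, named in the files as Pcdh3 and picked out here after its values were seen. Its level was 7.97 and 7.53 in CC, 8.31 and 7.99 in CC-CJ on the same arrays, 8.18 and 8.20 on the AA-CJ arrays, and 7.93 and 7.92 in AA-CJ. Within each array CC-CJ was the higher RNA. Mean M was 0.40 against CC (adjusted p = 0.0744) and 0.27 against AA-CJ (adjusted p = 0.13). Against CC it passed as a rise with the local regression on intensity and location (0.53, adjusted p = 0.0184) and in the authors' value table (0.63, adjusted p = 0.0116), the only member to rise in CC-CJ compared with CC after any normalization but median centering.

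**Figure D4:**
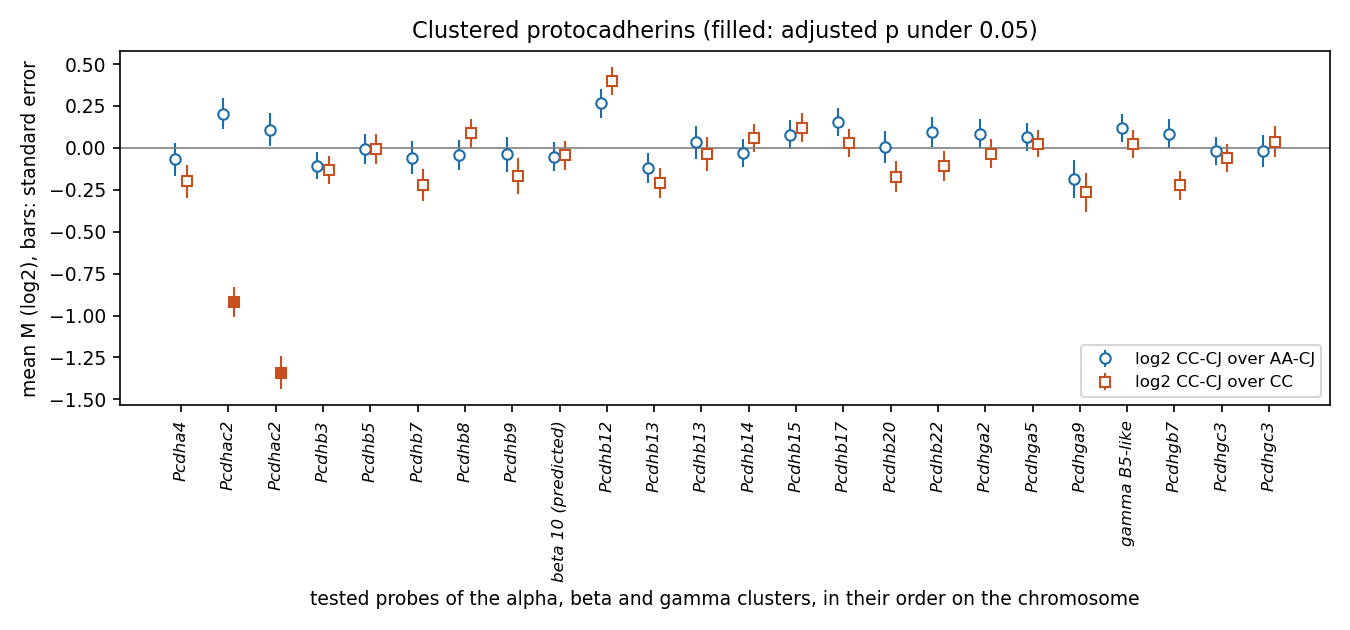
Mean M (log2, bars are standard errors, 2 arrays per comparison) of the 24 tested clustered protocadherin probes in their order on the chromosome. Circles are CC-CJ over AA-CJ and squares CC-CJ over CC, and filled symbols passed an adjusted p of 0.05. The 2 Pcdhac2 probes fell by 0.92 and 1.34 against CC, and the beta and gamma probes lie between -0.27 and 0.40. Several of the latter were at background in AA-CJ or CC-CJ, where M is drawn toward 0.

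Among the type I classical cadherins, Cdh2 (N-cadherin) had a level of 11.2 and 11.6 in AA-CJ, 11.7 and 11.6 in CC-CJ on those arrays, 11.7 and 11.6 on the CC arrays, and 11.7 and 11.4 in CC. The groups overlapped. M was 0.48 and 0.02 against AA-CJ (adjusted p = 0.32) and -0.03 and 0.26 against CC (adjusted p = 0.71). Cdh1 (E-cadherin) gave 0.31 and 0.31 against AA-CJ (adjusted p = 0.11) and -0.10 and 0.12 against CC (adjusted p = 0.97). Both fell in both comparisons under median centering, with M values of -1.04 and -0.80 against AA-CJ and -1.10 and -1.12 against CC. All were below the medians of all tested probes of -0.50 and -0.62. Cdh3 (P-cadherin) had a mean M of 0.08 against CC and did not pass in any comparison.

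Cdh11, a type II cadherin of mesenchymal cells and brain, was read by 4 probes within 29810 bases. Their mean M values ran from 0.10 to 0.17 against AA-CJ and from -0.32 to -0.08 against CC, and none passed. Under median centering all 4 were below 0 against AA-CJ, from -0.51 to -0.01. Of these, 3 lay 0.24 to 0.49 above the shifted median of all tested probes. In CC compared with AA-CJ the 4 probes ran from 0.18 to 0.46. Cdh10, at background outside CC, had M values of -0.21 and -0.23 against CC (adjusted p = 0.27), a 1.17-fold difference. With Feature Extraction's own log ratio it passed, with an M of -1.49 (adjusted p = 0.026). Cdh8, Cdh18 and Cdh22 had mean M values between -0.09 and 0.10 against AA-CJ and between -0.23 and 0.02 against CC.

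Besides Ctnnal1, no catenin passed in any comparison. Ctnnb1, which encodes beta-catenin, gave mean M values of -0.03 and 0.14 against AA-CJ and 0.08 and -0.08 against CC for its 2 probes (starting at 125978680 and 125985864). Ctnnd1 (p120-catenin) had 3 probes, from -0.14 to 0.02 against AA-CJ and from -0.01 to 0.10 against CC. Ctnnd2, the neuronal delta-catenin, gave -0.20 and -0.19 against AA-CJ (adjusted p = 0.46) and 0.05 and -0.54 against CC (adjusted p = 0.41). Ctnna2, the neuronal alpha-catenin, was well above background in CC alone, with M values of -0.34 and -0.27 against CC (adjusted p = 0.18), a 1.24-fold difference. Under median centering, values above 0 turned negative for Ctnnb1 against AA-CJ (probe starting at 125985864, -0.96) and against CC (probe starting at 125978680, -0.51), for Ctnnd1 against CC (probe starting at 67809184, -0.89) and in both comparisons (probe starting at 67860019, -0.26 and -0.23), and for both Ctnnal1 probes against CC (-0.50 and -0.98), while Ctnna2 turned to 0.15 against CC. Relative to the shifted medians of all tested probes, Ctnnb1 (125978680), Ctnnal1 (74716245) and Ctnnd1 (67860019) still lay above. The gap was 0.11 and 0.12 against CC for the first pair and 0.24 and 0.39 for Ctnnd1. Ctnnbl1, a nuclear protein with catenin-like repeats that takes part in splicing, had 2 probes with mean M values of -0.37 and -0.25 against AA-CJ and -0.22 and -0.16 against CC, and their arrays lay far apart. Cdh4 and Ctnna1 were matched by no probe under these names.

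The Celsr receptors, large cadherins of planar cell polarity, had 5 tested probes with mean M values from -0.19 to 0.03 against AA-CJ and from -0.30 to 0.17 against CC. None passed, and at an unadjusted p of 0.05 only Celsr3 was lower in CC-CJ than in CC. Cdh16 and the photoreceptor cadherin Cdhr1 did not pass either, with mean M values of 0.05 and -0.23 against AA-CJ and 0.02 and -0.25 against CC.

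Probes of the same gene could be compared for 12 genes. The widest gaps between probes were in genes with a call. For Pcdh17 the probes differed by 1.15 in mean M against CC, for Cdh13 by 0.68 and for Pcdh9 by 0.62, and for Ctnnal1 by 0.93 against AA-CJ. Both Pcdhac2 probes passed against CC and differed by 0.42. In the other 7 genes the gaps were at most 0.17 against AA-CJ and 0.28 against CC. With the mean over the probes of a gene, 2 members rose in CC-CJ compared with AA-CJ, 5 fell in CC-CJ compared with CC and 5 rose in CC compared with AA-CJ. Over all genes the shares called in these directions were 1.87%, 2.24% and 2.56%.

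**Figure D5:**
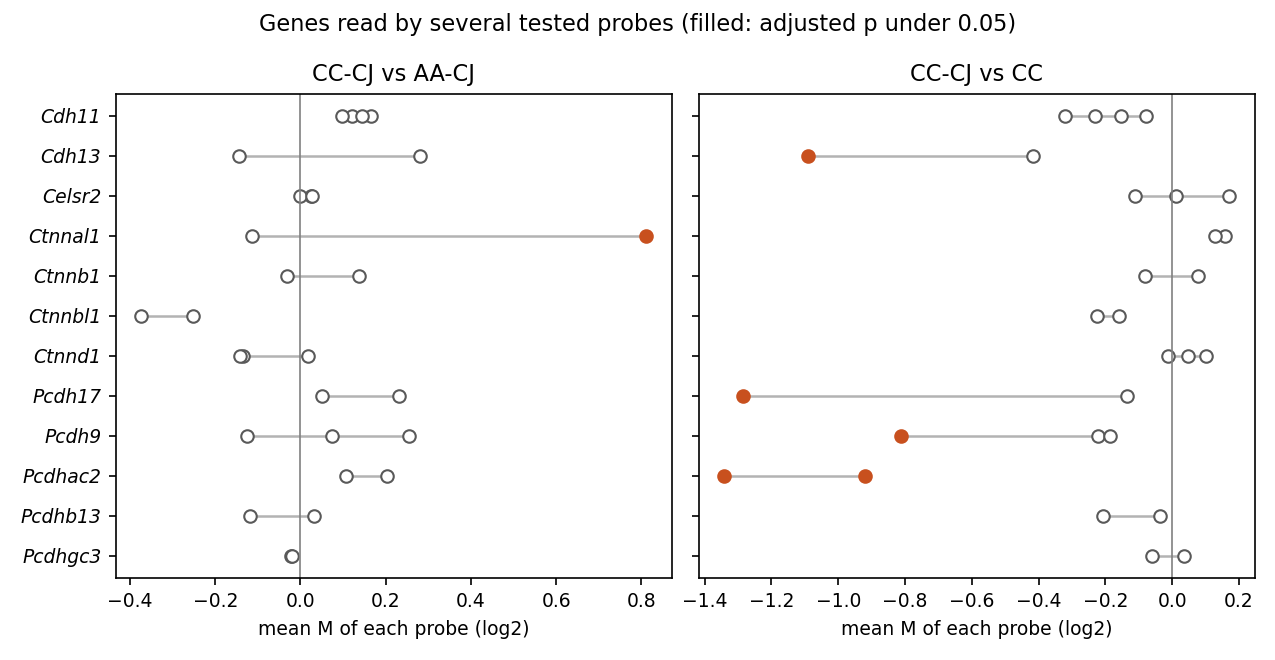
Points are the mean M (log2) of each tested probe, and lines join the probes of a gene, for the 12 genes with several tested probes. Filled points passed an adjusted p of 0.05. Ctnnal1 (against AA-CJ) and Cdh13, Pcdh9 and Pcdh17 (against CC) have 1 filled probe apart from the open ones, whereas both Pcdhac2 probes are filled.

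The share of the CC intensity that was left after cold jet, on the linear scale within an array, had its lowest mean over both arrays for the Pcdhac2 probe starting at 29927910, at 38.5% and 40.5%. It was 43.3% and 38.8% for Pcdh17 and 50.6% and 43.5% for Cdh13. It was 52.5% and 53.3% for the other Pcdhac2 probe, 58.6% and 55.4% for Pcdh9, 61.2% and 53.9% for Pcdh8 and 70.6% and 58.2% for Pcdh7. For all these probes but Pcdh8 the AA-CJ level was itself well above background, and the shares include whatever astrocytes contribute.

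The study's 2 SD criterion, an M beyond the mean by 2 SD on both arrays and, for rises against AA-CJ, no such fall against CC, was applied to the M values used here. It gave 3 rises in CC-CJ compared with AA-CJ and 7 falls in CC-CJ compared with CC, in each case the same probes that passed in limma. Over all probes, 0.824% and 1.27% met it in these directions. The methods also asked that probes of the same mRNA give comparable results, with no limit stated, and this was not applied. It bears on Ctnnal1, Cdh13, Pcdh9 and Pcdh17, whose probes differed. Median centering left the medians of all tested probes at -0.50 against AA-CJ and -0.62 against CC. With it, 7 members were called higher and 26 lower against AA-CJ, and 2 higher and 35 lower against CC. Of the 24881 tested probes in all, 15376 and 16607 were called, a larger share than of the 69 members.

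Genes that work with cadherins were counted from 3 lists. Of 16 tested probes for 12 genes of catenin and TCF signaling, among them Axin2, a target of beta-catenin, and Gsk3b, a kinase that marks it for decay, none passed in any comparison. At an unadjusted p of 0.05, CC-CJ was above AA-CJ for 2 of them and below CC for 5, and CC was above AA-CJ for 3. Of all tested probes, 11%, 11.9% and 11.5% were called in these directions, and 5.94% were lower in CC than in AA-CJ. Axin2 had a mean M of 0.32 against AA-CJ (adjusted p = 0.0845) and 0.13 against CC (adjusted p = 0.49). Of 27 probes for 14 genes of junction partners and cadherin proteases, such as vinculin (Vcl) and Adam10, none passed, and at an unadjusted p of 0.05 there were 2 higher against AA-CJ, 1 lower against CC, and 1 higher and 2 lower in CC compared with AA-CJ. Of 5 probes for other members of the superfamily (Clstn1, Clstn2, Dchs1, Dsc2 and Fat3), none passed with or without adjustment, and mean M lay between -0.12 and 0.15 in both comparisons with CC-CJ.

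The 33 members too dim for the test in every RNA were spread over most subfamilies. The type II cadherins had 9 tested probes of 16, and those for Cdh7, Cdh9 and Cdh19, the last a cadherin of Schwann cell precursors, were not tested. The other cadherins had 3 of 8, without Cdh17, Cdh23, which forms part of the tip links of hair cells, and Cdh26, and the type I cadherins 3 of 4, without Cdh15 of muscle. The delta-1 protocadherins had 6 of 8, the delta-2 protocadherins 6 of 6, the alpha protocadherins 3 of 5, the beta 15 of 21 and the gamma 7 of 11. Of the remaining protocadherins only Cdhr1 was tested among 6 probes, and Pcdh12, Pcdh15 and Pcdh20 were not. The Celsr receptors had 5 of 6 and the catenins 11 of 11. A probe that stayed dim does not show that its gene was silent, in particular for mouse transcripts.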

How the data were processed

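RNA of 3 groups was hybridized in pairs to 4 two-color Agilent arrays for rat, with 2 arrays per comparison and CC-CJ always in Cy3. Per the file headers, the deposited scanner files were made with Feature Extraction 9.5.1.1 and hold mean and background intensities and a log10 ratio for each spot. The authors' value table holds log2 ratios from a local regression on intensity and location (OLIN and OSLIN in the methods), which were used as an alternative.

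The analysis started from the deposited intensities, with normexp background correction (offset 50) and loess within arrays (span 0.3) in limma 3.58.1 and R 4.3.3. Control spots and the 121 to 179 outlier spots of each array were left out, and spots of a probe were averaged. A probe was kept if some RNA group had it well above background on all its arrays, and 1 model was fitted over all 4 arrays (residual df 2, prior df 4.97) with Benjamini-Hochberg adjustment over 24880 probes with a p-value. Levels were taken after Aquantile normalization between arrays. Of the probes, 50.3 to 62.6% were well above background per channel, no member spot was saturated, and the number of arrays limits the precision. On simulated data for CC-CJ versus AA-CJ, 92.5% of 200 probes changed by 1 on the log2 scale were recovered, and 4.15% of the calls were false, over 24881 probes. Smaller changes, which most members had, were not simulated, and their recovery is not known.

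Groups were taken from the sample labels. Replicate numbers were checked for pairing: deviations of same-numbered arrays correlated by -0.13 between the comparisons, and the numbers were not treated as pairs. The 102 member probes were named through RefSeq by accession (34), gene ID (14) or symbol (45), and 9 kept the name in the files. Members named by rule are those with an adjusted p under 0.05 in any comparison and the same sign on both arrays (at most the 10 largest each way), those the study names (Pcdh10, Cdh6 and Ctnnal1), a fixed set of classical cadherins and catenins, and genes whose probes disagree in sign with one passing. Other members are named to complete their subfamily, a choice made with their values in view. The members and the lists were chosen with earlier results of these data known. Probe positions are those of the files (rn4).

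Alternatives were offset 16, plain background subtraction, median centering, a local regression like the authors' (locfit 1.5.9.12), Feature Extraction's log ratio, the value table, other filters on dim probes, an intensity trend in the prior, a replicate block, the mean over the probes of a gene, and leaving out each array.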

Additional observations from a re-analysis of the deposited data

How the results depend on the processing

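Pcdh10 against AA-CJ and the Pcdhac2 probe starting at 29927910 against CC passed under all alternatives run. The number of members called in CC-CJ versus AA-CJ (3) was 33 under median centering and 1 with Feature Extraction's log ratio. In CC-CJ versus CC (7) it was 37 under median centering and 2 with background subtraction and with Feature Extraction's log ratio. In CC versus AA-CJ (8) it was 3, 2 and 5 with background subtraction, Feature Extraction's log ratio and gene means. Leaving out 1 array gave 2 to 3, 3 to 7 and 6 to 7 members, with 3 in CC-CJ versus CC without its replicate 2. Over all probes, median centering called 15376 and 16607 probes against AA-CJ and CC, and Feature Extraction's log ratio called 88 against AA-CJ.

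The median M of the members against AA-CJ (0.02) was 0.0247 with offset 16, 0.0292 with background subtraction, -0.12 with median centering, 0.12 with Feature Extraction's log ratio, 0.0357 in the value table, -0.00098 over all probes, 0.0326 over probes bright in both channels, and 0.0171 to 0.0315 without 1 array. Against CC (-0.11) it was -0.19, -0.30 and -0.24 with background subtraction, median centering and Feature Extraction's log ratio, -0.0497 over all probes, and -0.12 to -0.052 without 1 array. In CC versus AA-CJ (0.11) it was 0.18 with offset 16, 0.26 with background subtraction, 0.24 with Feature Extraction's log ratio, 0.0392 over all probes, and 0.0798 to 0.17 without 1 array.

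Among the members named, signs changed 36 times outside median centering, in no case with a call before or after and with main values of at most 0.25 in size. Median centering changed 18 signs, 12 of them with a call before or after. Against AA-CJ these 12 included Cdh13 (probe starting at 49566285, -0.32), Cdh2 (-1.04), Cdh1 (-0.80), Cdh11 (2380233, -0.51), Ctnnb1 (125985864, -0.96) and Cdh6 (-0.0314). Against CC they included Ctnnb1 (125978680, -0.51), Cdh2 (-1.10), Ctnnd1 (67809184, -0.89), Ctnnal1 (-0.98 and -0.50) and Cdh1 (-1.12). The cause was not tested.

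With the replicate number as a block, 3, 6 and 6 members were called, and 319, 404 and 419 probes in all in place of 797, 579 and 651. The block lost Pcdh7 against CC (adjusted p = 0.056) and Pcdh8 and Cdh6 in CC versus AA-CJ (adjusted p = 0.10 and 0.087), and changed no other of the members' calls. With the numbers crossed, chosen after seeing the data, 3, 7 and 9 members and 1536, 901 and 865 probes were called.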
